A study of Piriqueta cistoides subsp. caroliniana with 18 samples.

Results

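CHLH, HEMB and GSA1 encode enzymes of the tetrapyrrole pathway, through which leaves make chlorophyll. Their members on the array were all probes whose only gene symbol is 1 of these 3 names, which gave 5 of 9600 probes. CHLH had the probes Gm06047 and Gm06139 (Entrez gene 548043), HEMB had Gm14419 and Gm17841 (548095), and GSA1 had Gm17519 (547795). HEMB Gm14419 had no value on any array, so that 4 of the 5 members were measured, and all 4 had values on at least 17 of the 18 arrays.

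The study compared leaf RNA of the perennial herb Piriqueta cistoides subsp. caroliniana, called Piriqueta caroliniana in the series title, between drought and a well-watered control. There were 6 groups of 3 plants each: hybrid drought, hybrid well-watered, caroliniana drought, caroliniana well-watered, viridis drought and viridis well-watered, where caroliniana and viridis are the parental morphotypes of the hybrid. Drought plants went through 4 drought cycles in 36 days, and all plants were raised in a greenhouse from cuttings in sand. Each of the 18 plants was hybridised on 2 arrays, once in Cy5 and once in Cy3, and the 18 arrays close into 1 loop. The labels do not say whether plants of 1 number share a parent plant. The p-values rest on the spread between these arrays, which holds both array error and differences between these plants.

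In plants, tetrapyrrole synthesis starts from glutamate. GSA1, the glutamate-1-semialdehyde aminotransferase, forms aminolevulinic acid, and HEMB, the aminolevulinate dehydratase, condenses it to porphobilinogen. Later steps lead to protoporphyrin, where the path divides: an iron branch makes heme, and a magnesium branch makes chlorophyll. CHLH is the large subunit of the magnesium chelatase, the enzyme that opens the magnesium branch, and in Arabidopsis it has also been studied in connection with abscisic acid, the hormone of drought responses.

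The values are log ratios between both dyes of an array, and they hold no expression level, so neither the level of these genes nor the leaf identity of the tissue could be checked from them. The arrays carry soybean cDNA clones, and the gene names are those of the soybean clones to which Piriqueta RNA hybridised. Signs assume a ratio of Cy5 over Cy3, with a positive drought effect meaning a higher value in drought plants. The files do not state this direction, and under the opposite reading every positive value becomes negative and every negative value positive, while sizes, p-values and opposite signs between genes stay as they are. The base of the logarithm is not stated either, and effects are in log-ratio units. Arrays had values for 5962 to 8134 probes, and the test took in the 7880 probes measured on at least 14 arrays. The submitters marked 1 array BAD, that of viridis drought plant 3 over hybrid drought plant 2. In earlier results of these data viridis drought plant 3 and hybrid well-watered plant 2 stood apart. Averaged drought effects without both were 0.83 for CHLH Gm06139 (limma, adjusted p = 1.69e-04), 0.74 for CHLH Gm06047 (adjusted p = 0.0706), -0.26 for HEMB (adjusted p = 0.187) and -0.07 for GSA1 (adjusted p = 0.554).

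Under drought, CHLH and the earlier enzymes had different log ratios. Averaged over the 3 morphotypes, its probe Gm06139 changed to the positive side by 0.77 ± 0.0992 (SE), and Gm06047 had a like estimate of 0.72 ± 0.181 that missed the threshold. HEMB Gm17841 had -0.22 ± 0.0834 and GSA1 Gm17519 had -0.03 ± 0.0606, and neither passed. Thus 1 of the 4 measured members passed an adjusted p of 0.05, on the positive side, where 1.94% of the 7880 tested probes passed in either direction. An unadjusted p under 0.05 was reached by 3 of the 4 members and by 10.5% of all tested probes. All tested probes had a median effect of -0.02, with a 5th percentile of -0.16 and a 95th percentile of 0.17. The median over the 4 members, 0.35, falls between the CHLH probes, both positive, and HEMB and GSA1, both negative. It therefore describes none of the members.

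**Figure D1:**
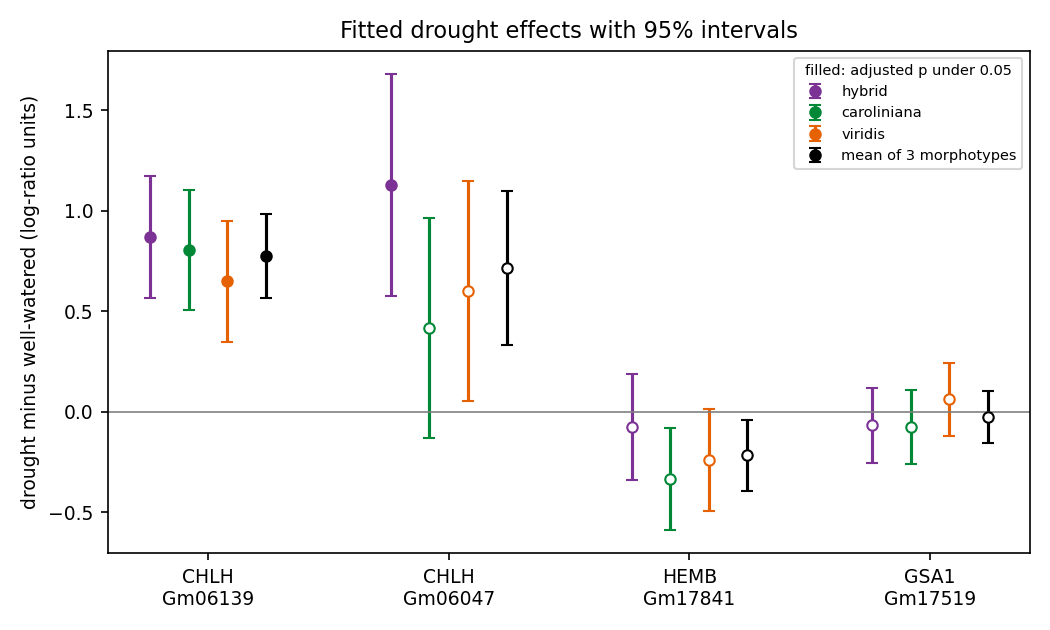
Fitted drought effects (drought minus well-watered, log-ratio units, vertical axis) of the 4 measured probes within each morphotype and averaged, with 95% intervals; filled points passed an adjusted p of 0.05. CHLH Gm06139 is filled in all 3 morphotypes (0.87, 0.81 and 0.65), while HEMB Gm17841 and GSA1 Gm17519 are open throughout.

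The most direct view of drought comes from 6 arrays on which both treatments of 1 morphotype meet. They hold 12 different plants, 4 of each morphotype, so they share no plant with each other. On these arrays CHLH Gm06139 had drought minus well-watered log ratios of 0.70 and 0.72 for hybrid plants, of 1.37 and 0.63 for caroliniana plants and of 0.82 and 0.45 for viridis plants. All 6 lay on the positive side. Their mean was 0.78 ± 0.311 (SD, n = 6; exact two-sided sign-flip permutation test, p = 0.031, the smallest that 6 arrays allow).

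CHLH Gm06047 had 0.90 and 1.02 on the hybrid arrays, 0.52 and 0.64 on the caroliniana arrays, and 0.65 and 0.18 on the viridis arrays. Again all 6 were positive, with the highest values in the hybrid. The mean was 0.65 ± 0.297 (SD, n = 6; exact permutation test, p = 0.031). All 6 of these arrays lay on 1 side for 7.76% of the 7451 probes with values on each of them, 219 above and 359 below 0, so a shared sign alone was not rare.

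HEMB Gm17841 had -0.14 and -0.04 for hybrid plants, -0.88 and 0.07 for caroliniana plants, and -0.36 and -0.04 for viridis plants. It was negative on 5 of the 6 arrays. The arrays with caroliniana drought plant 1 and viridis drought plant 1, both with the drought plant in Cy3, lay furthest from 0. The mean of -0.23 ± 0.349 (SD, n = 6) was smaller than the spread (exact permutation test, p = 0.125). It differed by dye, at -0.00199 over the 3 arrays with the drought plant in Cy5 and -0.46 over the 3 with it in Cy3. HEMB had the largest dye intercept of the 4 probes, 0.20 for Cy5 over Cy3, against 0.09 for CHLH Gm06047, 0.04 for GSA1 and -0.06 for CHLH Gm06139.

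GSA1 Gm17519 had 0.07 and -0.13 for hybrid plants, -0.10 and -0.19 for caroliniana plants, and 0.19 and -0.05 for viridis plants. The values lay on both sides of 0 in the hybrid and in viridis. Their mean was -0.04 ± 0.140 (SD, n = 6; exact permutation test, p = 0.594).

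**Figure D2:**
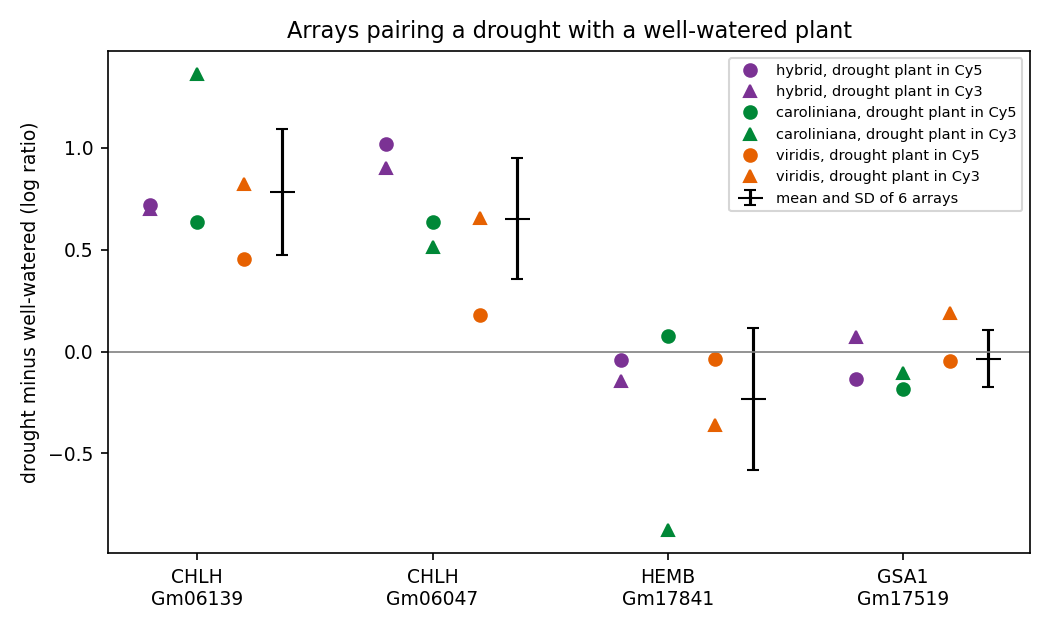
Drought minus well-watered log ratios (vertical axis) on the 6 arrays that pair both treatments within a morphotype, by probe, with circles where the drought plant was in Cy5 and triangles where it was in Cy3; black bars give the mean and SD of the 6. Both CHLH probes lie above 0 on all 6 arrays, HEMB lies below 0 on 5, and GSA1 scatters around 0.

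The other 12 arrays pair plants of the same treatment and show how far a probe varies without a treatment difference. With signs dropped, CHLH Gm06139 measured 0.45 to 1.37 (median 0.71) on the 6 arrays across treatments and 0.01 to 0.47 (median 0.12) on the 12 within a treatment, and 5 of the 6 exceeded all 12. The 12 include comparisons between morphotypes, since none pairs plants of 1 group.

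For CHLH Gm06047 the medians were 0.65 across and 0.27 within treatments. A single array within a treatment exceeded all others, at 1.84, the array of the well-watered plants caroliniana 1 over hybrid 3. The next highest within a treatment was 0.52. This sparse array had values for 5962 probes, the fewest of the 18, and the other CHLH probe had 0.16 on it.

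HEMB Gm17841 had a median size of 0.11 across and 0.20 within treatments (11 arrays, since it had no value on the sparse array). GSA1 Gm17519 had 0.12 and 0.08. Of the 6 arrays across treatments, 1 for HEMB and 0 for GSA1 exceeded all arrays within a treatment.

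**Figure D3:**
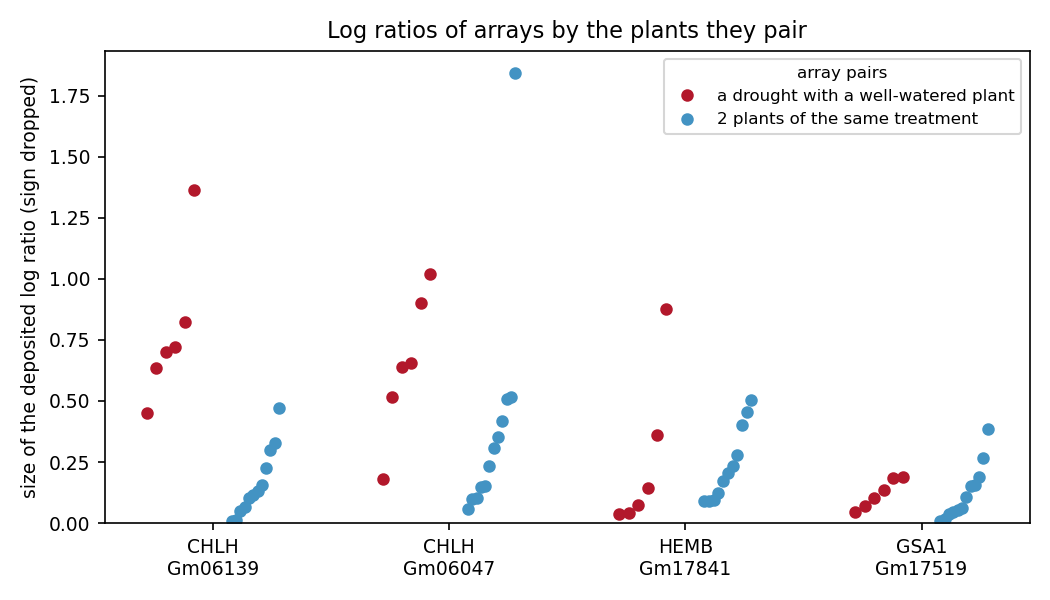
Sizes of the deposited log ratios (signs dropped, vertical axis) of each probe on the 6 arrays that pair a drought with a well-watered plant and on those that pair plants of 1 treatment (12, or 11 for HEMB). CHLH Gm06139 has 5 of 6 red points above every blue one, and the lone high blue point of CHLH Gm06047 is at 1.84.

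All 18 arrays were then fitted together, with 6 group means, a dye term and the plant as a random effect. The averaged effect of CHLH Gm06139 had a 95% interval of 0.56 to 0.99 and ranked 49th of the 7880 probes by p (limma moderated test, adjusted p = 1.24e-04). An effect of this size is a 1.71-fold difference if the base of the logarithm is 2 and 2.17-fold if it is e. When each of the 18 plants was left out in turn, the effect ran from 0.65 without caroliniana drought plant 1 to 0.83 without hybrid well-watered plant 2, and it passed in all 18 fits.

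CHLH Gm06047 had a 95% interval of 0.33 to 1.10 and an adjusted p of 0.0539. Its residual SD, 0.416, was above that of 97.7% of tested probes, against 82.5% for Gm06139 (0.219). Without the sparse array, an alternative chosen after the data were seen, its effect was 0.67 ± 0.117 and passed (adjusted p = 0.00361). It also passed without hybrid well-watered plant 2 (0.74), hybrid well-watered plant 3 (0.67), caroliniana well-watered plant 1 (0.64) or viridis drought plant 2 (0.85), with adjusted p from 0.00571 to 0.310 over the 18 plants left out. The effects of both CHLH probes differed by 0.06, Gm06139 minus Gm06047, with a 95% interval of -0.36 to 0.47.

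HEMB Gm17841 had a 95% interval of -0.39 to -0.04 and an unadjusted p of 0.0207, and did not pass over all probes (limma, adjusted p = 0.331). Leaving out a plant gave -0.27 without caroliniana drought plant 2 and -0.14 without caroliniana drought plant 1 as the extremes, with the sign kept in all 18 fits. GSA1 Gm17519 had an interval of -0.15 to 0.10 (adjusted p = 0.935), and its sign changed without 4 of the 18 plants (-0.07 to 0.02).

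Differences between genes on the same array do not depend on how the arrays were centred. CHLH, as the mean of its 2 probes, exceeded HEMB in its averaged drought effect by 0.94 (95% interval 0.61 to 1.27) and GSA1 by 0.77 (0.47 to 1.07). Both intervals stayed above 0 with each plant left out, with estimates of 0.79 to 1.02 and of 0.68 to 0.86. HEMB minus GSA1 was -0.19 (-0.38 to -0.01), and 12 of the 18 plants left out gave an interval that included 0, with estimates of -0.28 to -0.11. By morphotype CHLH minus HEMB was 0.96 in the hybrid (0.47 to 1.45), 1.002 in caroliniana (0.53 to 1.47) and 0.85 in viridis (0.38 to 1.32). CHLH minus GSA1 was 1.07 (0.64 to 1.496), 0.68 (0.26 to 1.11) and 0.56 (0.14 to 0.99) in the same order. The mean of the CHLH probes thus exceeded both genes of the early pathway within each morphotype. These differences by morphotype were not refitted with plants left out. The differences from GSA1 include the sparse array and those from HEMB do not, as HEMB had no value on it. Without that array the averaged CHLH minus GSA1 was 0.74.

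Plant values estimated from the loop, centred on 0 over the 18 plants, show the same by plant. For CHLH Gm06139 they were 0.44, 0.28 and 0.78 in hybrid drought plants 1 to 3, against -0.51, -0.20 and -0.56 in hybrid well-watered plants. Caroliniana had 0.83, 0.36 and 0.06 in drought, against -0.33, -0.47 and -0.39 well-watered, and viridis had 0.43, 0.06 and 0.24, against -0.45, -0.33 and -0.24. All 9 drought plants lay above all 9 well-watered plants, as for 0.726% of the 5371 probes complete on 18 arrays (in either direction). Neighbours in the loop share the error of an array, so plant values are not independent measurements.

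For CHLH Gm06047 the plant values were 1.28, 0.41 and 0.62 in hybrid drought plants, against -0.51, 0.29 and -1.02 in hybrid well-watered plants. Caroliniana had 0.17, 1.27 and -0.33 in drought, against 0.73, -0.44 and -0.78, and viridis had -0.0047, -0.75 and 0.56, against -0.84, -0.75 and 0.10. The treatments overlapped in both parents and were separate in the hybrid, as for 11.6% of the 5371 complete probes there (7.52% in caroliniana). The highest and the lowest well-watered plants, caroliniana 1 and hybrid 3, are those of the sparse array.

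For HEMB Gm17841 the 3 hybrid drought plants had -0.18, -0.26 and -0.25, against -0.03, -0.23 and 0.02 in hybrid well-watered plants. Caroliniana had -0.54, 0.25 and 0.15 in drought, against 0.37, 0.14 and 0.41 well-watered. Viridis had 0.04, -0.11 and -0.18, against 0.12, 0.21 and 0.08, the only morphotype in which the treatments did not overlap. In viridis 6.87% of the complete probes did not overlap. Caroliniana drought plant 1 was the lowest of the 18 plants for HEMB and the highest for CHLH Gm06139. For GSA1 Gm17519 the values ran from -0.27 to 0.27 (median 0.04) in drought plants and from -0.24 to 0.19 (median 0.05) in well-watered plants, with overlap in every morphotype.

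**Figure D4:**
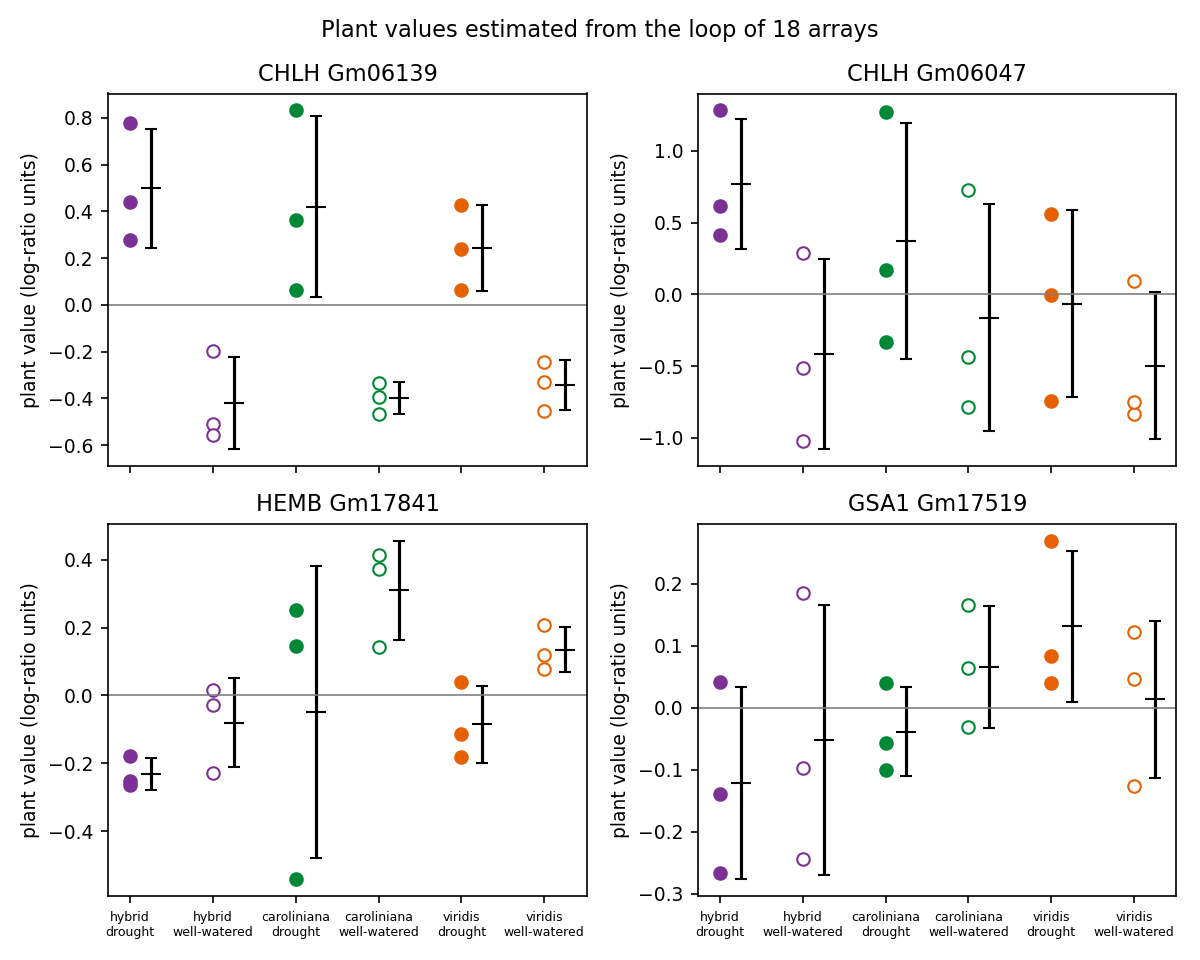
Plant values (log-ratio units, centred on 0 over 18 plants) by group, with filled points for drought and open points for well-watered plants and black bars for the mean and SD of 3 plants. In the panel of CHLH Gm06139 all drought plants (0.06 to 0.83) lie above all well-watered plants (-0.56 to -0.20); in the other panels the treatments overlap over all plants.

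Within the hybrid, both CHLH probes changed to the positive side, by 0.87 ± 0.143 for Gm06139 (limma, adjusted p = 0.0022) and 1.13 ± 0.260 for Gm06047 (adjusted p = 0.0290). HEMB had -0.07 ± 0.124 (adjusted p = 0.814) and GSA1 -0.07 ± 0.0873 (adjusted p = 0.748). These were 2 of 4 members called, where 2.07% of all tested probes were called. Gm06139 passed with each of the 18 plants left out, while the call of Gm06047 ended without any 1 of hybrid drought plants 1, 2 and 3, hybrid well-watered plant 1, caroliniana drought plants 1 and 2, caroliniana well-watered plant 2, viridis drought plants 1 and 3 and viridis well-watered plant 2, with effects of 0.91 to 1.27 over all 18. Without the sparse array Gm06047 had 0.92 (adjusted p = 0.00825). HEMB changed sign without 2 plants (-0.18 to 0.04).

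Within caroliniana, CHLH Gm06139 changed by 0.81 ± 0.141 (limma, adjusted p = 0.00981), and 0.799% of tested probes were called. Gm06047 had 0.42 ± 0.258 (adjusted p = 0.999), HEMB -0.33 ± 0.119 (adjusted p = 0.673) and GSA1 -0.07 ± 0.0864 (adjusted p = 0.999). The call of Gm06139 ended without drought plant 1 (0.55), drought plant 2 (0.85) or well-watered plant 1 (0.87), 2 (0.60) or 3 (0.82) of this morphotype. The Gm06047 value was 0.26 without drought plant 2 and also without well-watered plant 3. The HEMB value was -0.11 without caroliniana drought plant 1 and -0.49 without drought plant 2.

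Within viridis, CHLH Gm06139 changed by 0.65 ± 0.142 and passed narrowly (limma, adjusted p = 0.0445), and 0.711% of tested probes were called. It kept this call without hybrid drought plant 3, hybrid well-watered plant 2, caroliniana drought plant 1 or viridis drought plant 3 and lost it without each of the other 14 plants, with effects of 0.55 to 0.74 over all 18. It also lost it without the array marked BAD (0.63, adjusted p = 0.0990) and with plant number as a replicate block (0.64, adjusted p = 0.0694). Gm06047 had 0.60 ± 0.258 (adjusted p = 0.879), HEMB -0.24 ± 0.119 (adjusted p = 0.997) and GSA1 0.06 ± 0.0866 (adjusted p = 0.997).

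The drought effect of no member passed the test for a difference between morphotypes. In the interaction test (F with 2 numerator df, limma) 0 of the 4 members passed, as did 0% of all tested probes, and 0 members had an unadjusted p under 0.05 (adjusted p = 0.998 for each). Without hybrid well-watered plant 2, 120 probes passed the interaction test and again 0 of the 4 members. For CHLH Gm06139 the effect in the hybrid minus that in caroliniana was 0.06 (95% interval -0.31 to 0.44), and hybrid minus viridis was 0.22 (-0.15 to 0.59). For CHLH Gm06047 hybrid minus caroliniana was 0.71 (0.03 to 1.40, adjusted p = 0.901). It was 0.41 ± 0.217 without the sparse array. For HEMB the same difference was 0.26 (-0.07 to 0.59), and for GSA1 0.01 (-0.22 to 0.24). The intervals of CHLH Gm06047, HEMB and GSA1 leave room for a difference at least as large as the averaged drought effect of the same probe.

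Morphotypes were also compared over both treatments. The hybrid minus the mean of its parents was 0.00 ± 0.0938 for CHLH Gm06139, -0.25 ± 0.171 for CHLH Gm06047, -0.19 ± 0.0838 for HEMB and -0.04 ± 0.0573 for GSA1. By limma 0 of 4 members passed and 0% of all tested probes, and 1 member, HEMB, had an unadjusted p under 0.05 (0.0356, adjusted p = 0.806). The Gm06047 value was -0.06 without caroliniana well-watered plant 1, -0.09 without hybrid well-watered plant 3 and -0.05 without the sparse array. The HEMB value was -0.12 without caroliniana drought plant 2, and -0.04 with the sign turned on the array of the well-watered plants viridis 3 over hybrid 2. HEMB had -0.25 against caroliniana (unadjusted p = 0.0221, adjusted p = 0.9998) and -0.14 against viridis (adjusted p = 0.582), and 0% of tested probes were called in each of these comparisons, with 1 and 0 members at an unadjusted p under 0.05.

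In well-watered plants the hybrid minus the mean of its parents was -0.30 ± 0.111 for HEMB (unadjusted p = 0.0165) and -0.56 ± 0.219 for CHLH Gm06047 (unadjusted p = 0.0212), neither of which passed (limma, adjusted p = 0.9999 for each). Here 1 probe of all tested, 0.0127%, was called. The CHLH value was -0.24 ± 0.156 without the sparse array. Under drought the same comparison had -0.09 for HEMB and 0.06 for CHLH Gm06047, with 0% of probes called and 0 members with an unadjusted p under 0.05.

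Caroliniana minus viridis over both treatments was -0.00319 ± 0.105 for CHLH Gm06139, 0.17 ± 0.192 for CHLH Gm06047, 0.11 ± 0.0905 for HEMB and -0.11 ± 0.0644 for GSA1. By limma none of the 4 passed, with 0 unadjusted p under 0.05 and 0% of tested probes called. Single plants moved these values. With 1 plant left out Gm06047 ran from 0.04 without caroliniana well-watered plant 1 to 0.31 without caroliniana well-watered plant 3, and it was 0.04 without the sparse array. HEMB ran from 0.04 without caroliniana drought plant 3 to 0.19 without caroliniana drought plant 1. GSA1 had -0.18 ± 0.0835 under drought (unadjusted p = 0.0499, adjusted p = 0.990) and -0.04 ± 0.0843 in well-watered plants (adjusted p = 0.986), with 0% of tested probes called in each.

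Of 54 symbols listed for tetrapyrrole synthesis and breakdown, 4 matched tested probes: the 3 genes above and SGR1, a name used for the stay-green protein of chlorophyll breakdown. The annotation does not describe SGR1, and that it names this protein was assumed. The SGR1 probes Gm05120 and Gm05255 had averaged drought effects of 0.02 ± 0.0884 and -0.01 ± 0.0429 (limma, adjusted p = 0.964 and 0.955). Of the 6 tested probes of the list, 1 passed, CHLH Gm06139, and it was positive, against 1.94% of all tested probes.

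Of 30 photosynthesis symbols, CAB3, a light-harvesting chlorophyll a/b-binding protein, and PSAD, a subunit of photosystem I, matched. On the positive side 4 of 6 probes were called, all of CAB3, against 1.94% of all tested probes in either direction. CAB3 Gm01099 and Gm05769 had values on 15 and 16 arrays, and on 3 and 4 of the 6 arrays across treatments. On the same arrays CAB3 Gm06115 exceeded CHLH Gm06139 in its averaged effect by 1.10 (95% interval 0.70 to 1.51). PSAD Gm06019 lay below CHLH Gm06139 by -0.44 (-0.67 to -0.20), with an effect of its own of 0.34 ± 0.0883 (limma, adjusted p = 0.0629). The other PSAD probe, Gm10356, had -0.09 ± 0.0629 (adjusted p = 0.714) and was positive on 1 of the 6 arrays across treatments, against 6 of 6 for Gm06019. Of the lists for other cell types, 13 probes of 6 seed storage genes and 1 probe of 1 nodule gene were tested and 0 passed by limma (3 of them at an unadjusted p under 0.05), with effects of -0.24 (GY2, adjusted p = 0.0841) to 0.13 (CG-1), and no root or vascular symbol matched. A change in the share of leaf cell types and a change in RNA per cell cannot be told apart in whole leaves.

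The clone numbers of both CHLH probes are close, and their surroundings overlap slightly. Tested probes within 50 clone numbers on either side were counted as neighbours. Of these, 6 of 51 around Gm06047 (11.8%, 5 positive) and 5 of 45 around Gm06139 (11.1%, all positive) were called for averaged drought. Around HEMB Gm17841 it was 1 of 17 (5.88%, negative), and around GSA1 0 of 20. Over all tested probes the share called was 1.94%, below that around either CHLH probe. The medians of these neighbours were 0.05, -0.01, 0.01 and -0.01. PSAD Gm06019 is among the tested neighbours of CHLH Gm06047, and CAB3 Gm06115 is among those of CHLH Gm06139. The part of clone position in the values of CHLH and of these probes was not tested.

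The log ratios of both CHLH probes had a Pearson correlation of 0.67 over the 18 arrays. Each CHLH probe correlated negatively with HEMB, -0.60 for Gm06139 and -0.23 for Gm06047 over 17 arrays, and near 0 with GSA1 (-0.14 and -0.02 over 18). On 1 array, caroliniana well-watered plant 2 over caroliniana drought plant 1, Gm06139 had -1.37 and HEMB 0.88. These are the largest values in size of both probes, and the correlation without this array was not computed. HEMB and GSA1 had 0.24. The arrays share plants, and the values include the dye term, so these are descriptions.

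Among 463 probes with another single gene symbol, those most like CHLH Gm06139 over 18 arrays were LOC547820 Gm05863 (Pearson correlation 0.85), CAB3 Gm06115 (0.85) and CYP98A2 Gm08062 (0.83), a cytochrome P450 of the phenylpropanoid pathway. All 3 were called on the positive side for averaged drought, where 1.94% of all tested probes were called in either direction. Here and for the other members, like probes were picked on the same arrays that gave the calls. Their calls are therefore not separate support. The probes most like CHLH Gm06047 were CYP98A2 Gm08062 (0.80), LOC778110 Gm07908 (0.80) and SRC1 Gm04916 (0.80), of which the first was called.

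HEMB Gm17841 was most like LOC548038 Gm17350 (0.59 over 14 arrays), which was called on the negative side at -0.42 ± 0.0743 (limma, adjusted p = 0.00875). The next were LOC547816 Gm07283 (0.56) and GRP Gm01832 (0.55 over 17 arrays), neither called. GSA1 Gm17519 was most like MAPKK2 Gm05579 (0.80), GAI1 Gm04090 (0.79) and LOC547636 Gm12996 (0.75), with averaged drought effects of -0.02, -0.10 and 0.000311, none called.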

How the data were processed

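The authors' deposited values were read as log2 ratios of both dyes of an array, though base e is possible. Per the labels, they come from amplified leaf RNA labelled with Cy3 and Cy5. Background correction, normalisation, base and direction are not given in the sources used here. Here no value was filled in, centred or scaled. Symbols came from the platform's probe table (552 probes, 546 with 1 symbol).

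Probes with values on at least 14 of 18 arrays (7880) entered a generalised least squares fit. Per probe it held 6 group means and a dye intercept, with plants as random effects. The plant variance relative to arrays was 0.25 by restricted maximum likelihood, the same for all probes. Tests were limma 3.58.1 moderated tests (R 4.3.3), two-sided, with Benjamini-Hochberg adjustment over all tested probes and a threshold of 0.05. The fit was tested on simulated data. Intervals of differences between genes and probes are unmoderated (12 residual df, 11 with HEMB). Plant values used MASS 7.3.60.0.1, and for HEMB, with 1 array missing, the fitted dye intercept. Figures used matplotlib 3.10.9 in Python 3.11.15.

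All measured members were named, with listed pathway and photosynthesis genes and, per member, the 3 named probes of highest correlation. Members, lists and several alternatives were chosen with earlier results of these data known. The number of arrays limits the precision. Alternatives varied the arrays, plants, scaling, filter, dye term, weights and replicate block.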

Additional observations from a re-analysis of the deposited data

How the results depend on the processing

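Without single plants, 1 to 2 members passed for averaged drought and in the hybrid, and 0 to 1 in caroliniana and in viridis. For averaged drought 2 passed, both CHLH probes, with arrays scaled alike, with complete probes, with weighted independent arrays, with the first residual component as covariate, with the sign turned on 1 array (well-watered, viridis 3 over hybrid 2), and without the sparse array (well-watered, caroliniana 1 over hybrid 3), which was chosen after seeing the data. In viridis 0 passed without the array marked BAD, with arrays scaled alike, with the replicate block, without a dye term, with that sign turned, or without the sparse array. The replicate block gave CHLH Gm06139 0.64 there (adjusted p = 0.0694). Whether plant numbers pair the plants cannot be decided from the plant values, since these share the errors of arrays. The correlation of deviations ran from -0.696 to 0.617 over 45 same-numbered pairs, 13 of them over 0.1. Over 90 pairs of different number it ran from -0.685 to 0.783, with 38 over 0.1. Of the 18 plants, 6 correlated best with a plant of their own number.

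Values near 0 changed sign. CHLH Gm06139 in the hybrid against the mid-parent was -0.000152 with independent arrays, -0.00272 with the block, -0.103 without both plants that stood apart, and -0.0255 with the sign turned. Without those plants GSA1 had 0.0020. In caroliniana against viridis CHLH Gm06139 was 0.0105 without the array marked BAD, 0.00497 with arrays centred on medians, 0.00239 scaled alike and 0.0102 with the block. With 1 plant left out these ran from -0.0745 to 0.0763 and -0.0713 to 0.147, GSA1 from -0.0737 to 0.0165 (averaged drought), -0.110 to 0.00788 (caroliniana) and -0.0182 to 0.141 (viridis), and HEMB in the hybrid from -0.176 to 0.0389. Causes were not tested. Other settings than leaving out 1 plant gave 127 to 342 called probes for averaged drought, against 153, 127 to 1114 in the hybrid, against 163, 38 to 113 in caroliniana, against 63, and 49 to 108 in viridis, against 56. With 1 plant left out the counts were 101 to 373 for averaged drought, 67 to 1145 in the hybrid, 4 to 107 in caroliniana and 14 to 85 in viridis. HEMB could not be fitted with complete probes.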
